A study of Mus musculus with 8 samples.

Results

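Triglyceride, the storage fat of adipocytes, is built on a glycerol 3-phosphate backbone, and 10 genes that supply this backbone or attach fatty acids to it were followed in inguinal white adipose tissue (ING WAT). The genes were taken by symbol from a list and not by their values, and all 10 were among the 38362 genes of the deposited table. They are *Pck1*, *Gpd1* and *Aqp7* for glycerol supply and export, *Gpam* and *Agpat2* for the acylation of glycerol 3-phosphate, *Lpin1* for the removal of the phosphate, *Dgat1* and *Dgat2* for the last acylation, and *Mogat1* and *Mogat2* for the route that starts from monoacylglycerol. Poly(A)+ RNA of ING WAT was sequenced from 4 C57BL/6j mice at postnatal day 21 (PN21; m1, m49, m138 and m145) and from 4 at PN98 (m35, m106, m114 and m125). Neither a genetic change nor a drug is stated for either group. The study fed the dams a purified AIN93G diet through lactation, and full weaning was at PN21. Weaned mice stayed on AIN93G up to PN42, and from then on ate AIN93M or a western style diet until PN98. The labels do not state which of the latter the sequenced PN98 mice ate, so age cannot be told apart from diet. The PN21 mice were taken at weaning, so age cannot be told apart from the end of suckling either. The study's mice were fasted before dissection. Litters were culled after birth, and the labels tie no mouse to a litter.

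In the glycerol phosphate pathway, each fatty acid is attached by an acyltransferase in turn. White adipocytes take up little glycerol for re-use because they hold little glycerol kinase. They make glycerol 3-phosphate from glucose or, through PEPCK, from lactate and amino acids. The latter route is known as glyceroneogenesis and is active in fasting. The monoacylglycerol route is best known from the intestine, where it rebuilds absorbed dietary fat.

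FPKM values (fragments divided by transcript length and by mapped fragments of the library) were added up over all transcripts of a gene. Because the deposited files hold no read counts, the depth is unknown and counting error cannot be given. All p-values are from limma on log2(FPKM + 1), PN98 minus PN21, with Benjamini-Hochberg adjustment over the 16091 genes that averaged 1 FPKM or more, unless another test is named. An adjusted p under 0.05 was reached by 838 (5.21%) of these genes, with 373 (2.32%) up and 465 (2.89%) down at PN98. The fold change is on the log2(FPKM + 1) scale and understates the change of low genes. Nothing states that the mice came from separate litters, so the p-values measure the spread between these mice.

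Several facts of the libraries touch the values below. Mouse m35 had the lowest mean Pearson correlation with the mice of its own age (0.850 across genes, against 0.879 to 0.901 for the others), and m145 had the highest summed FPKM of the 8 mice. The summed FPKM of the 12 adipocyte markers lay between 19701 and 36595 at PN21 and between 49494 and 67175 at PN98. All 12 had a positive log2 fold change, 8 did not overlap between the ages and 5 passed an adjusted p of 0.05. Over all genes tested, 6.04% lay wholly higher at PN98 and 2.32% passed as higher. In a piece of tissue, fewer cells of a type and less RNA per cell cannot be told apart. Among the adipocyte markers, *Plin1* was listed at only 1.73 to 20.2 FPKM. The 11 skeletal muscle markers in the table, of which *Mb* and *Ckm* are examples, summed to values between 12.6 and 414 at PN21 and between 425 and 2872 at PN98, highest in m106, and their part in the results below was not tested. The summed markers of lymphocytes lay between 623 and 1375 at PN21 and between 32.9 and 1339 at PN98, and those of progenitor cells between 1756 and 3886 and between 307 and 989. Epithelial markers summed to 4.04 to 31.6 FPKM at PN21 and 1.17 to 2.33 FPKM at PN98, macrophage markers to 670 to 1164 and 357 to 1199, and endothelial markers to 165 to 229 and 73.6 to 255. Mouse m35 held the highest PN98 sum of the lymphocyte, progenitor, epithelial, macrophage and endothelial markers, and the lowest of the adipocyte markers. Lymphocyte markers summed to 379 or lower in the other PN98 mice. The part of this makeup of m35 in the results below was not tested. Y-linked *Ddx3y* stood between 18.1 and 25.9 FPKM in all 8 mice, and *Xist* at 0.832 FPKM or lower. Over all genes, log2 fold changes had a median of −0.21 as deposited, −0.02 after median of ratios scaling, 0.01 after scaling to nuclear genes and −1.14 after scaling to the adipocyte markers, so each change is read against this shift.

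Upstream stretches of *Pck1* and *Mogat1* are shown because these were the 2 of the 10 genes whose mice did not overlap between the ages. The sequences are from RefSeq on GRCm38.p6, plus strand, at chr2:173152823-173153047 and chr1:78510810-78510990, and end before the first exon of each gene in GENCODE. Capitals mark TTACGTCA, the cyclic AMP response element known from *Pck1*, and TATATA, a core promoter motif.
Pck1: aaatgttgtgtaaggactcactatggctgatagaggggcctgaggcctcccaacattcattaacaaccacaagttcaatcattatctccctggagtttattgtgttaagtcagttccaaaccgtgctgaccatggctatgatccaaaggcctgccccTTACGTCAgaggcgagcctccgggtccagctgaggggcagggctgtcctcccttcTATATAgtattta
Mogat1: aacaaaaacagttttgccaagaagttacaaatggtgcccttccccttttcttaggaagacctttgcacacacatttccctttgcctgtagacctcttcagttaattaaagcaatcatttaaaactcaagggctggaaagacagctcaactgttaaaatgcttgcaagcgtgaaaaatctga
TTACGTCA begins 93 bases before the RefSeq start of *Pck1*, and TATATA begins 38 bases before it. In the 250 bases before each of 32851 RefSeq starts, on either strand, TTACGTCA occurs in 0.447% and TATATA in 5.25%. RefSeq windows were found for 6 of the 10 genes (8 windows, with 2 each for *Gpam* and *Aqp7*), and these 2 motifs were each found in 1 of the 8, that of *Pck1*. The nuclear receptor core motif AGGTCA was found in 4 of the 8 windows, of *Aqp7*, *Gpam* and *Lpin1*, against 14.0% of all windows. CCAAT occurred in 1 of the 8, of *Gpam*, against 33.8% of all windows. TGACGTCA (1.55% of all windows), CACGTG (6.02%) and the direct repeat of the core motif with 1 base between its copies (0.0335%) were in none of the 8 windows. A match describes these letters only.

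Of the 10 genes, *Mogat1* rose and none fell at an adjusted p under 0.05, where 2.32% and 2.89% of all genes tested did so. With an unadjusted p under 0.05 were 4 that were higher and 0 that were lower, where 8.17% and 19.0% of all genes tested were so. *Mogat2*, 1 of the 4, met the condition on the mean only through its PN98 mice, so that count is a description and supports no direction. *Mogat1* and *Pck1* were the 2 genes whose PN98 mice all lay above the PN21 mice, as did 6.04% of all genes tested. None lay wholly below, as 9.99% of all genes did. The median log2 fold change of the 10 genes was 0.28, beside −0.21 over all genes.

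**Figure D1:**
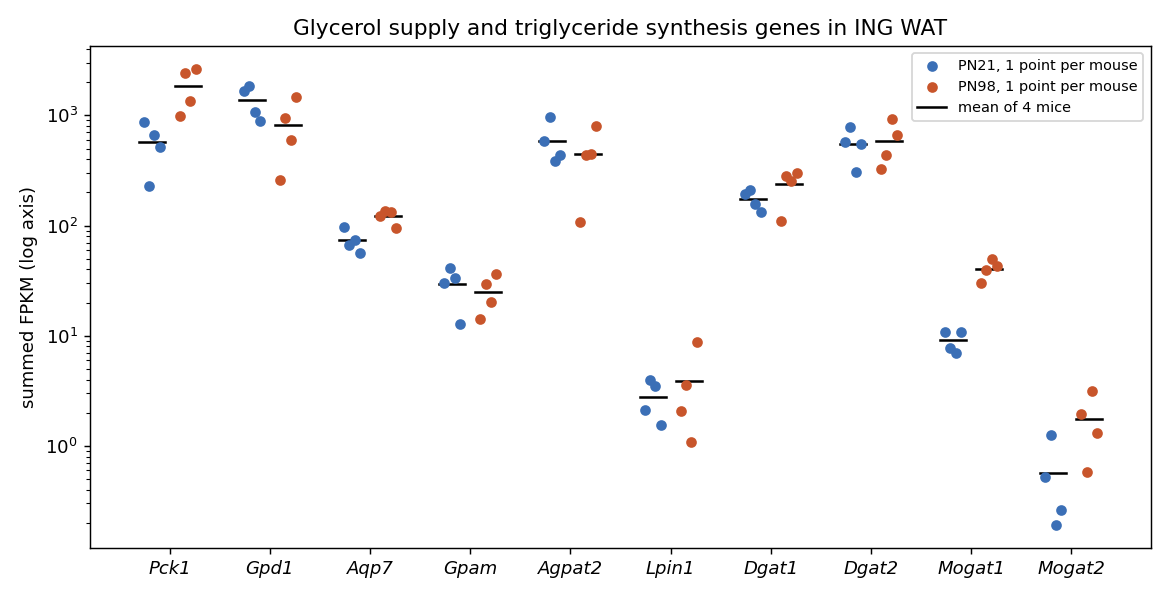
Summed FPKM of the 10 genes in each mouse on a log axis, with PN21 in blue, PN98 in orange and the mean of 4 mice as a black bar. Only *Pck1* and *Mogat1* show no overlap between the ages, while *Gpd1*, *Agpat2* and *Dgat1* have 1 PN98 mouse, m35, well below the other 3.

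*Pck1* encodes the cytosolic phosphoenolpyruvate carboxykinase, the entry enzyme of glyceroneogenesis, and lies at chr2:173153048-173159273 on the plus strand. Its level at PN21 was 874, 226, 658 and 513 FPKM in m1, m49, m138 and m145, and at PN98 it was 987, 2428, 1355 and 2651 FPKM in m35, m106, m114 and m125. All PN98 mice were above all PN21 mice, with m35 only just above m1. It averaged 568 ± 272 FPKM at PN21 and 1855 ± 809 FPKM at PN98 (SD, n = 4 each), 3.27-fold. Its log2 fold change was 1.75 ± 0.48 (SE) with an adjusted p of 0.0742, so *Pck1* did not pass the threshold with all 8 mice. Without m35 it was 2.02 with an adjusted p of 0.0262, without m49 it was 1.36 with an adjusted p of 0.128, and after scaling to the adipocyte markers it was 0.65 with an adjusted p of 0.265.

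*Gpd1* encodes the cytosolic glycerol 3-phosphate dehydrogenase, which makes glycerol 3-phosphate from a glycolytic intermediate (chr15:99717515-99725005, plus strand). Its level was 1667, 1853, 1064 and 890 FPKM in m1, m49, m138 and m145, the PN21 mice, and 259, 944, 592 and 1473 FPKM at PN98 (m35, m106, m114 and m125). The ages overlapped, and the spread at PN98 ran from the lowest of the 8 values to one above 2 of the PN21 mice. The averages were 1368 ± 464 FPKM at PN21 and 817 ± 519 FPKM at PN98 (SD, n = 4 each). A log2 fold change of −0.94 ± 0.52 (SE) was found, with a 95% interval from −2.13 to 0.25 and an adjusted p of 0.263. The antisense gene *Gm16537* overlaps *Gpd1*. The kit keeps strand, but whether strand was used in quantification is not given in the sources used here, so reads of the 2 genes may not have been told apart. Overlapping genes also had 5 listed transcripts at *Agpat2* and 1 at *Mogat1*, which were not used. Reads there may not have been told apart either.

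*Aqp7* encodes the adipocyte channel through which glycerol leaves the cell (chr4:41033074-41048139, minus strand). It stood at 96.1, 66.0, 74.2 and 56.8 FPKM in m1, m49, m138 and m145, and at 121, 135, 134 and 95.3 FPKM in m35, m106, m114 and m125. The only overlap was between m1 and m125, which lay within 1 FPKM of each other. The mean was 73.3 ± 16.8 FPKM at PN21 and 121 ± 18.4 FPKM at PN98 (SD, n = 4 each). Its log2 fold change was 0.73 ± 0.20 (SE), with an adjusted p of 0.0805. It passed after median of ratios scaling (0.96, adjusted p = 0.0259) and turned to −0.36 with an adjusted p of 0.206 after scaling to the adipocyte markers.

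The makeup of the 10-gene sum shifted with these values. *Gpd1* held 34.2% to 44.6% of the summed FPKM of the 10 genes at PN21 and 13.2% to 24.3% at PN98. *Pck1* held 5.44% to 24.5% at PN21 and 35.8% to 51.3% at PN98. Neither share overlapped between the ages. The ratio of *Pck1* to *Gpd1* was 0.524, 0.122, 0.618 and 0.576 in m1, m49, m138 and m145, and 3.81, 2.57, 2.29 and 1.7997 in m35, m106, m114 and m125. *Gpd1* was thus the higher of the pair in every PN21 mouse and *Pck1* in every PN98 mouse. The log2 ratio differed by 2.69 between the ages (two-sided exact permutation test over 70 splits, p = 0.0286, the smallest it can give; adjusted p = 0.143 over 10 ratios).

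*Gpam* encodes the mitochondrial acyltransferase that attaches the first fatty acid (chr19:55067268-55127238, minus strand). It stood at 29.9, 41.1, 33.6 and 12.7 FPKM in m1, m49, m138 and m145, and at 14.1, 29.7, 20.3 and 36.4 FPKM in m35, m106, m114 and m125. The ages overlapped over nearly their whole range. The log2 fold change was −0.19 ± 0.41 (SE), with a 95% interval from −1.13 to 0.75 and an adjusted p of 0.788, and its sign turned after median of ratios scaling and after scaling to nuclear genes. *Gpat3*, the acyltransferase of the same step in the endoplasmic reticulum, averaged 26.0 ± 10.6 FPKM at PN21 and 37.3 ± 18.4 FPKM at PN98 (SD, n = 4 each). The ratio of *Gpam* to *Gpat3* was 0.900, 1.12, 1.83 and 0.820 at PN21 and 0.724, 0.562, 0.867 and 0.682 at PN98, in the order of mice above. The difference in the log2 ratio was −0.64 (exact permutation p = 0.0571, adjusted p = 0.143).

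*Agpat2* encodes the enzyme that attaches the next fatty acid, and its loss is a known cause of generalized lipodystrophy (chr2:26593057-26604417, minus strand). It stood at 581, 959, 387 and 434 FPKM in m1, m49, m138 and m145, and at 107, 434, 448 and 795 FPKM in m35, m106, m114 and m125. Mouse m35 was the lowest by far and the other 3 PN98 mice lay inside the PN21 range. The mean was 590 ± 259 FPKM at PN21 and 446 ± 281 FPKM at PN98 (SD, n = 4 each). On the log2 scale the change was −0.62 ± 0.59 (SE), with a 95% interval from −1.98 to 0.73 and an adjusted p of 0.501, and it was −0.04 without m35. Summed over transcripts, *Agpat2* stood above its ubiquitous relative *Agpat1*, by 12.9, 26.5, 9.86 and 12.7 times in the PN21 mice. In the PN98 mice it did so by 3.23, 10.3, 12.5 and 16.5 times. The protein-coding *Agpat2-201* alone averaged 118 FPKM at PN21 and 88.5 FPKM at PN98, beside 38.7 and 39.8 FPKM for summed *Agpat1*. The log2 ratio of the pair differed by −0.65 between the ages (exact permutation p = 0.429, adjusted p = 0.536). The log2 ratio of *Gpam* to *Agpat2* differed by 0.44 (exact permutation p = 0.429, adjusted p = 0.536).

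*Lpin1* encodes the main phosphatidate phosphatase of adipose tissue (chr12:16535669-16610966, minus strand), and the table holds 1 transcript of it, *Lpin1-202*. It stood at 2.11, 3.96, 3.48 and 1.56 FPKM in m1, m49, m138 and m145, and at 2.08, 3.54, 1.09 and 8.73 FPKM in m35, m106, m114 and m125. The PN98 mice held both the lowest and the highest value. Its log2 fold change of 0.17 ± 0.46 (SE), with a 95% interval from −0.89 to 1.23, did not pass, and its sign turned after scaling to the adipocyte markers. *Lpin2*, a relative with the same activity, averaged 3.67 ± 1.38 FPKM at PN21 and 4.72 ± 1.36 FPKM at PN98 (SD, n = 4 each). The log2 ratio of *Lpin1* to *Lpin2* differed by −0.14 (exact permutation p = 0.857, adjusted p = 0.914).

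*Dgat1* and *Dgat2* encode unrelated enzymes that both add the last fatty acid to diacylglycerol. *Dgat1* (chr15:76502015-76511953, minus strand) stood at 192, 211, 157 and 132 FPKM in m1, m49, m138 and m145, and at 111, 284, 255 and 303 FPKM in m35, m106, m114 and m125. The PN98 mice other than m35 were above every PN21 mouse, and m35 was below them all. With all 8 mice the log2 fold change was 0.38 ± 0.34 (SE, adjusted p = 0.469). Without m35 it was 0.72 with an adjusted p of 0.0422, and after scaling to the adipocyte markers it was −0.72 (adjusted p = 0.0576).

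*Dgat2* (chr7:99153658-99182719, minus strand) stood at 577, 789, 304 and 549 FPKM in m1, m49, m138 and m145, and at 328, 437, 922 and 663 FPKM in m35, m106, m114 and m125. The ages overlapped, with a mean of 554 ± 199 FPKM at PN21 and 587 ± 263 FPKM at PN98 (SD, n = 4 each). A log2 fold change of 0.05 ± 0.39 (SE) was found, with a 95% interval from −0.84 to 0.95 and an adjusted p of 0.943, and the sign turned with the scaling to the adipocyte markers. *Dgat2* was above *Dgat1* in every mouse, 3.01, 3.73, 1.94 and 4.15 times at PN21 and 2.97, 1.54, 3.61 and 2.19 times at PN98. The difference in the log2 ratio was −0.33 (exact permutation p = 0.343, adjusted p = 0.536).

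*Mogat1* encodes a monoacylglycerol acyltransferase, which makes diacylglycerol without passing through glycerol 3-phosphate (chr1:78510991-78538173, plus strand). It stood at 10.9, 7.71, 6.91 and 10.8 FPKM in m1, m49, m138 and m145, and at 29.8, 39.1, 49.8 and 43.2 FPKM in m35, m106, m114 and m125. Every PN98 mouse was above every PN21 mouse, and m35 was among them, unlike in *Gpd1*, *Agpat2* and *Dgat1*. The mean was 9.08 ± 2.07 FPKM at PN21 and 40.5 ± 8.37 FPKM at PN98 (SD, n = 4 each), 4.46-fold. Its log2 fold change was 2.04 ± 0.22 (SE), with a 95% interval from 1.54 to 2.54 and an adjusted p of 0.00396. It remained past the threshold in each run that left out 1 mouse, at 1.93 to 2.18. After scaling to the adipocyte markers it was 1.001 with an adjusted p of 0.00438.

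*Mogat2*, the intestinal form of this enzyme, lies on chromosome 7 at chr7:99219084-99238619, minus strand, 36364 bases from *Dgat2* with no protein-coding gene between them. It stood at 0.527, 1.27, 0.192 and 0.262 FPKM in m1, m49, m138 and m145, and at 1.96, 0.576, 3.16 and 1.30 FPKM in m35, m106, m114 and m125. These are the lowest levels of the 10 genes, and the ages overlapped. The antisense gene *Gm45012* overlaps *Mogat2*. *Mogat2* passed the condition on a mean of 1 FPKM through its PN98 mice, so it had to lean that way. Its log2 fold change was 0.77 ± 0.33 (SE, adjusted p = 0.179).

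Set against *Dgat2*, which differed little between the ages, *Mogat1* stood at 0.0189, 0.00977, 0.0228 and 0.0197 of its level at PN21 and at 0.0908, 0.0894, 0.0540 and 0.0652 at PN98. The ratios did not overlap, and the log2 ratio differed by 1.99 (two-sided exact permutation p = 0.0286, the smallest it can give; adjusted p = 0.143). The log2 ratio of *Mogat2* to *Dgat2* differed by 0.72 (exact permutation p = 0.0857, adjusted p = 0.171). Of the 10 ratios tested with the exact permutation test, 2 had an unadjusted p under 0.05 and 0 an adjusted p under 0.05. With 10 ratios, 6 would have to reach the smallest p for any to pass.

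**Figure D2:**
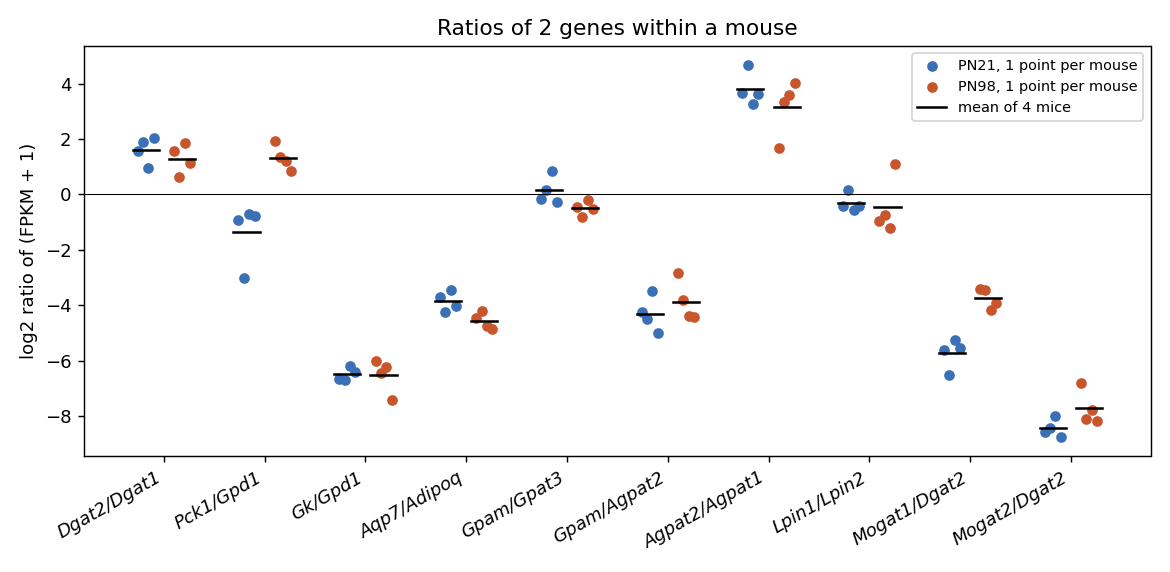
Log2 ratios of (FPKM + 1) for 10 pairs of genes in each mouse, PN21 in blue and PN98 in orange, with the mean of 4 mice as a black bar. *Pck1*/*Gpd1* and *Mogat1*/*Dgat2* are the 2 ratios with an exact permutation p of 0.0286, and m49 is the low PN21 point of the former.

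The order of the summed levels differed between the ages. FPKM is per length, so levels of genes can be set side by side, but the sums mix coding and other transcripts. Of the *Agpat2* sum, 77.8% came from the processed transcript *Agpat2-202*, and *Lpin1* rests on 1 listed transcript. At PN21 *Gpd1* led at 1368 FPKM, followed by *Agpat2* (590 FPKM), *Pck1* (568 FPKM) and *Dgat2* (554 FPKM), each overlapping the next. *Dgat1*, *Aqp7*, *Gpam*, *Mogat1*, *Lpin1* and *Mogat2* followed in that order, and each lay wholly below the one before. At PN98 *Pck1* led at 1855 FPKM, and *Gpd1* (817 FPKM), *Dgat2* (587 FPKM), *Agpat2* (446 FPKM), *Dgat1* (238 FPKM) and *Aqp7* (121 FPKM) followed, each overlapping the next. *Mogat1* at 40.5 FPKM stood above *Gpam* at 25.1 FPKM in all 4 PN98 mice and below it in all 4 PN21 mice.

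The table holds 35 transcripts of the 10 genes, of which 24 met the study's own conditions (a value above 0 in every mouse and an average over 2 FPKM at one age or both). At this level, tested by limma without any pseudocount on log2 FPKM over 23138 transcripts, 0 of the 24 had an adjusted p under 0.05, where 1.30% of all did. An unadjusted p under 0.05 was found for 5 that were higher and 0 that were lower, against 6.92% and 14.8% of all transcripts. The 5 were 1 of *Pck1*, 2 of *Aqp7* and 2 of *Mogat1*. Of the transcripts tested, *Mogat1-201* met the condition on the average only through its PN98 values (1.88 FPKM at PN21 and 7.30 FPKM at PN98). So did *Mogat1-205* (1.52 and 9.20 FPKM). *Mogat1-201* was 1 of the 5, so that count is a description and supports no direction.

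*Mogat1-203*, annotated as a processed transcript, was the largest part of *Mogat1*. It averaged 4.33 FPKM at PN21 and 19.5 FPKM at PN98 (log2 fold change 2.42 ± 0.50, SE, adjusted p = 0.0704 with limma). The protein-coding *Mogat1-201* had a log2 fold change of 2.20 ± 0.50 (adjusted p = 0.0838). The protein-coding *Mogat1-205* averaged 1.52 FPKM at PN21 and 9.20 FPKM at PN98, with m145 at nearly 0. Summed over protein-coding transcripts alone, *Mogat1* had a log2 fold change of 1.99 with an adjusted p of 0.00740, and *Pck1* (1.804, adjusted p = 0.0426) and *Aqp7* (0.65, adjusted p = 0.0387) passed as well. This way of summing was added after the values were seen.

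*Pck1-201*, the protein-coding form, carried most of *Pck1* and averaged 530 FPKM at PN21 and 1789 FPKM at PN98 (log2 fold change 1.81 ± 0.51, adjusted p = 0.133 with limma). *Aqp7* was shared evenly between *Aqp7-201*, *Aqp7-202* and *Aqp7-204*, at 40.2, 39.6 and 40.4 FPKM at PN98. Their log2 fold changes were 0.66, 0.66 and 1.04, and the last of the 3 is annotated as a processed transcript.

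*Agpat2-202*, a processed transcript, averaged 462 FPKM at PN21 and 344 FPKM at PN98, and the protein-coding *Agpat2-201* averaged 118 and 88.5 FPKM. The summed *Agpat2* level is thus mostly that of a transcript not annotated as coding. *Dgat1* was a mixture as well. The protein-coding *Dgat1-201* averaged 46.3 FPKM at PN21 and 69.0 FPKM at PN98, beside the retained-intron forms *Dgat1-203* (51.0 and 65.3 FPKM) and *Dgat1-205* (41.6 and 51.1 FPKM). Nearly all of *Gpd1* came from the protein-coding *Gpd1-201*, which averaged 1332 FPKM at PN21 and 798 FPKM at PN98. Of the smaller forms, *Gpd1-202* averaged 36.8 and 19.4 FPKM, *Pck1-202* 27.4 and 44.0 FPKM, *Pck1-204* 9.73 and 20.1 FPKM and *Pck1-203* 0.714 and 2.06 FPKM. *Agpat2-203* averaged 7.81 and 10.7 FPKM, *Agpat2-205* 2.25 and 2.32 FPKM and *Mogat1-206* 1.20 and 4.34 FPKM. *Dgat1-204* averaged 18.4 and 30.2 FPKM, *Dgat1-207* 5.90 and 11.6 FPKM, *Dgat1-206* 4.52 and 6.10 FPKM and *Dgat1-202* 4.35 and 4.76 FPKM.

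**Figure D3:**
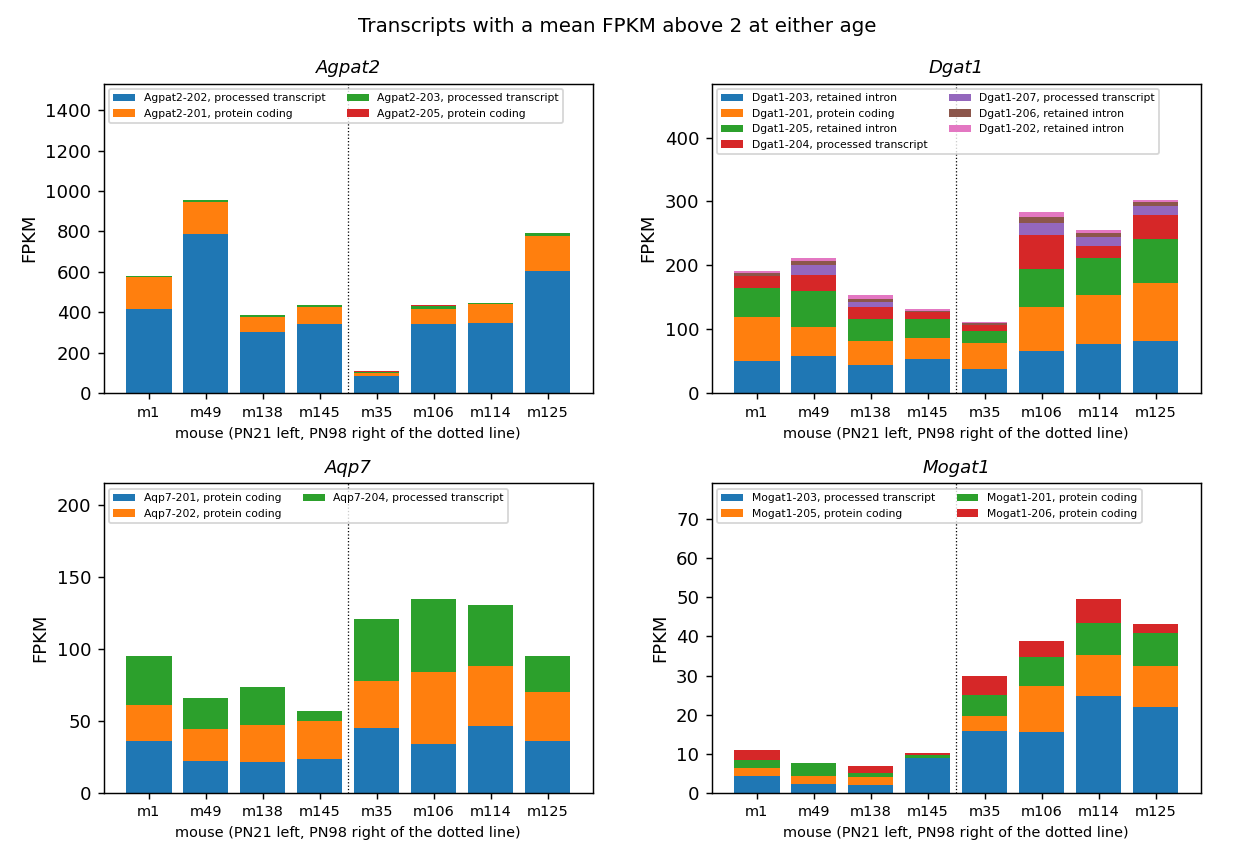
FPKM of the transcripts with a mean above 2 at either age, stacked for each mouse, for *Agpat2*, *Dgat1*, *Aqp7* and *Mogat1*. The *Mogat1* bars are higher in all 4 PN98 mice, *Agpat2-202* makes up most of *Agpat2*, and m35 is lowest in *Agpat2* and *Dgat1*.

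The other genes of the pathway were taken from a list of 25, of which 21 were tested. None rose, 2 fell and 19 did not pass, against 2.32% higher and 2.89% lower over all genes. For the 21, log2 fold changes had a median of −0.10, beside −0.21 over all genes. *Agpat4*, a relative of *Agpat2* studied mostly in brain, stood at 15.8, 9.75, 12.5 and 12.1 FPKM in m1, m49, m138 and m145, and at 6.44, 4.08, 5.32 and 2.61 FPKM in m35, m106, m114 and m125. The ages did not overlap, and the log2 fold change was −1.30 ± 0.25 (SE, adjusted p = 0.0271). *Lpin3*, a further lipin phosphatase, stood at 5.54, 6.32, 4.75 and 5.84 FPKM at PN21 and at 3.56, 3.02, 1.83 and 2.58 FPKM at PN98, in the same order of mice. It did not overlap either, with a log2 fold change of −0.83 ± 0.18 (SE, adjusted p = 0.0407). Both calls sat close to the threshold. With 1 mouse left out, *Agpat4* passed only without m35 or m125 and otherwise had adjusted p-values of 0.0526 to 0.0907. *Lpin3* passed only without m35 and otherwise had adjusted p-values of 0.0765 to 0.107.

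Over all genes tested, 5.21% passed and 19.0% were lower at an unadjusted p under 0.05 with limma. In the glycerol supply group (6 of 8 tested), 0 passed and 2 were lower at that unadjusted p. Glycerol kinase, encoded by *Gk*, which re-uses glycerol and is low in white but higher in brown adipocytes, was one of them. It stood at 15.4, 16.9, 13.5 and 9.35 FPKM in m1, m49, m138 and m145, and at 3.05, 9.74, 6.85 and 7.60 FPKM in m35, m106, m114 and m125 (log2 fold change −0.98 ± 0.32, SE, adjusted p = 0.111). The overlap was between m145 and m106. The log2 ratio of *Gk* to *Gpd1* differed by −0.04 between the ages (exact permutation p = 0.914, adjusted p = 0.914).

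Of 2 acyltransferases of the first step tested, 4 of the next step, 5 phosphatases and 4 acyl-CoA synthetases, 0, 1, 1 and 0 passed. The 2 that passed are *Agpat4* and *Lpin3*, where 5.21% of all genes tested passed. Of the 12 regulators, which include *Pparg*, *Cebpa*, *Srebf1*, *Mlxipl* and the lipin phosphatase *Ctdnep1*, 0 passed with limma, and at an unadjusted p under 0.05 1 was higher and 1 lower. Their median log2 fold change was −0.25.

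**Figure D4:**
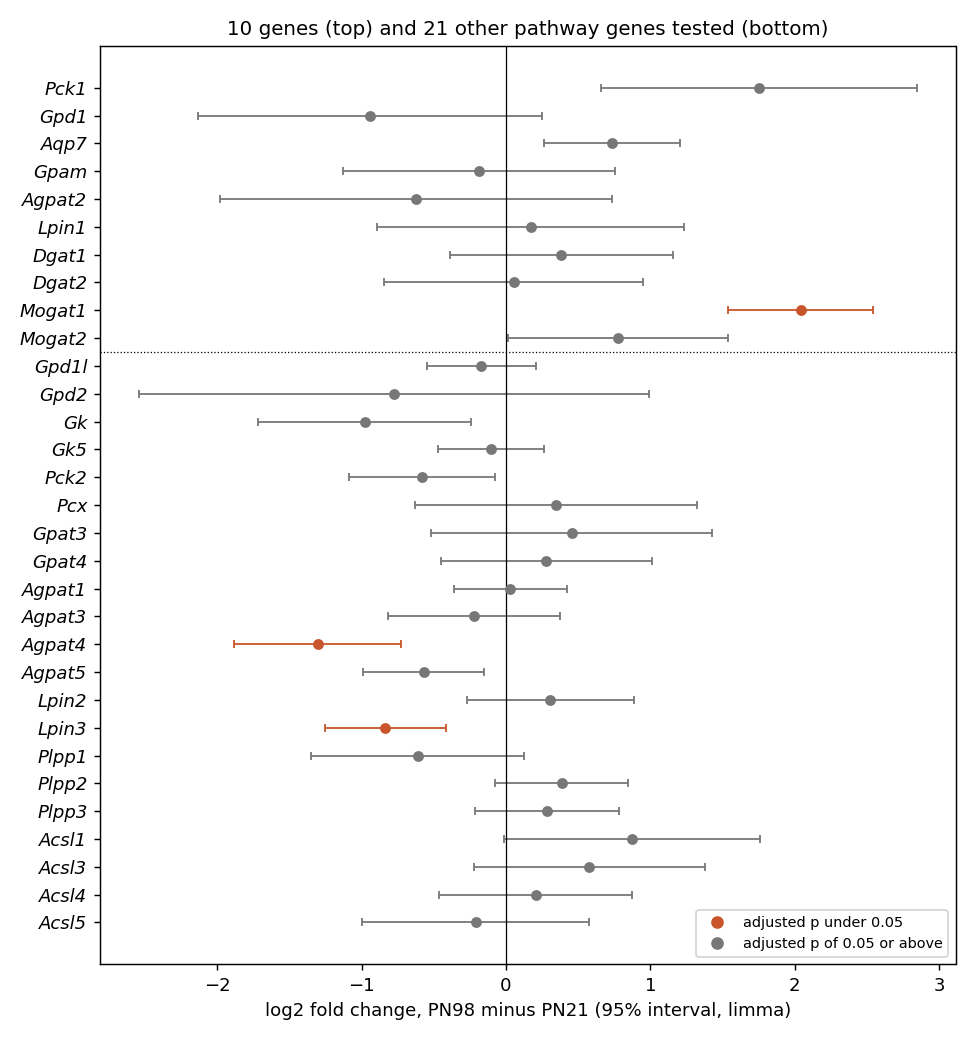
Log2 fold changes, PN98 minus PN21, with 95% intervals from limma for the 10 genes (above the dotted line) and 21 other pathway genes (below it). *Mogat1* is the only gene in orange above the line, at 2.04, and *Agpat4* and *Lpin3* are the 2 below it.

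The spread among the PN98 mice of *Gpd1* and *Agpat2* ran side by side with the brown adipocyte markers. The summed FPKM of the 9 brown adipocyte markers was 388 in m35, 1070 in m114, 2570 in m106 and 4398 in m125, and lay between 3172 and 6561 at PN21. Over the PN98 mice in this order, *Gpd1* was 259, 592, 944 and 1473 FPKM. *Agpat2* was 107, 448, 434 and 795 FPKM. *Mlxipl*, which encodes the glucose-sensing factor ChREBP, was 7.13, 29.6, 48.0 and 94.2 FPKM, and *Gpd2*, the mitochondrial partner of *Gpd1*, was 8.07, 39.9, 116 and 113.7 FPKM. *Gpd1* and *Mlxipl* thus followed the same order as the markers, and *Agpat2* and *Gpd2* did so but for 1 pair each. *Ucp1*, the defining brown adipocyte gene, was 7.41, 56.3, 278 and 356 FPKM in these mice. *Pck1* also followed this order at PN98, at 987, 1355, 2428 and 2651 FPKM, while *Mogat1* did not, at 29.8, 49.8, 39.1 and 43.2 FPKM. Of the 9 markers, 8 had a negative and 1 a positive log2 fold change, 3 lay wholly lower at PN98 and 0 passed with limma, with 3 lower at an unadjusted p under 0.05. Over all genes tested, 9.99% lay wholly lower and 19.0% were lower at that p, with a median log2 fold change of −0.21. The summed lymphocyte markers ran in the reverse order over these PN98 mice, at 1339, 379, 264 and 32.9 FPKM. So did those of macrophages (1199, 860, 586 and 357 FPKM) and progenitor cells (989, 935, 611 and 307 FPKM). At PN21 the order did not hold, as m145 had the highest brown adipocyte sum (6561 FPKM) and the lowest *Gpd1* (890 FPKM). The part of any of these cells in the values of the 10 genes was not tested.

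**Figure D5:**
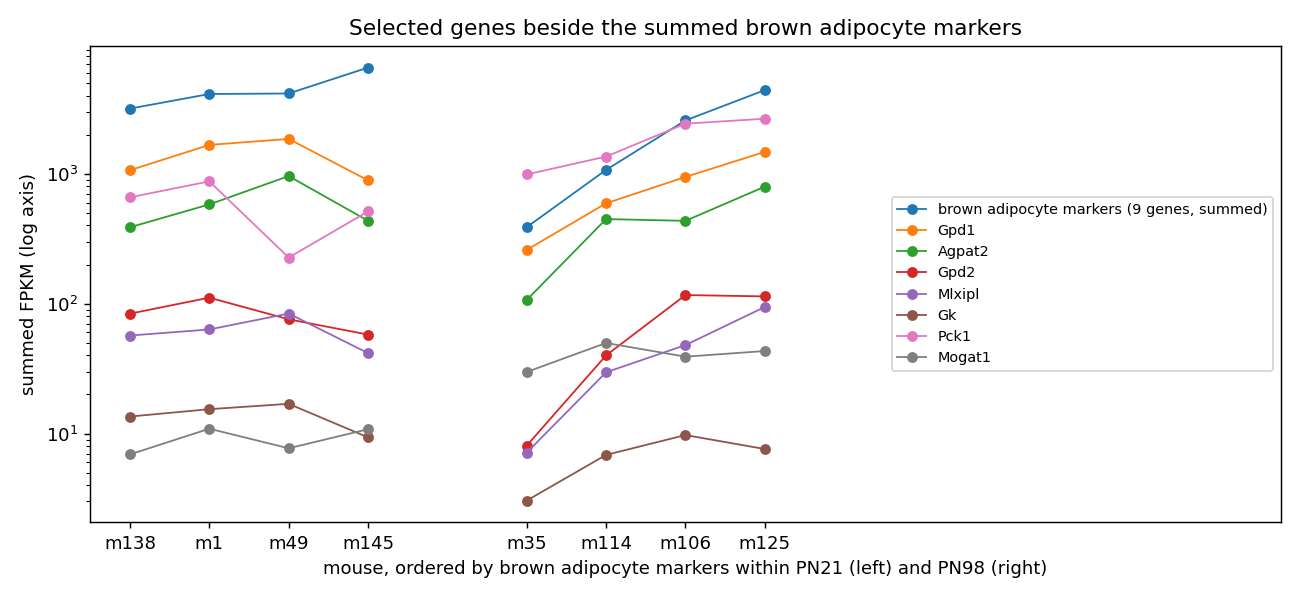
Summed FPKM on a log axis for the 9 brown adipocyte markers and 7 genes, with the mice of each age ordered by the markers. At PN98 the markers rise from 388 in m35 to 4398 in m125 and *Gpd1* from 259 to 1473 FPKM, while *Mogat1* stays between 29.8 and 49.8 FPKM.

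All 12 adipocyte markers had a higher mean at PN98 than at PN21. *Adipoq*, which encodes adiponectin, averaged 1075 ± 229 FPKM at PN21 and 2907 ± 509 FPKM at PN98 (SD, n = 4 each), 2.70-fold, with a log2 fold change of 1.45 ± 0.21 (SE, adjusted p = 0.0112). The 12 adipocyte markers ran from 1.17-fold for *Retn* to 4.33-fold for *Plin4* and 4.39-fold for *Cidec*, beside 4.46-fold for *Mogat1*. The ratio of *Aqp7* to *Adipoq* was 0.0764, 0.0516, 0.0908 and 0.0600 in m1, m49, m138 and m145, and 0.0450, 0.0536, 0.0366 and 0.0344 in m35, m106, m114 and m125. The ages overlapped only between m106 and m49, and the log2 ratio differed by −0.71 (exact permutation p = 0.0571, adjusted p = 0.143).

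The mean pattern of the 10 genes over the 8 mice was most like that of *Dgat1* among the 10 (Pearson r = 0.961, a description over 8 mice that the gene itself enters). Among 8193 other genes that averaged 10 FPKM or more, *Tecr*, which encodes an enzyme of very long-chain fatty acid synthesis, had the highest likeness (r = 0.986). *Cryz* (r = 0.972), *Pex13*, a peroxisome import gene (r = 0.968), and *Arl4a* (r = 0.964) were also among the 5 highest. *Tecr* stood at 114.1, 129, 96.5 and 87.8 FPKM at PN21 and at 96.9, 153, 157 and 198 FPKM at PN98, in the order of mice used above. All points share the 8 libraries, and none of these 4 genes had an adjusted p under 0.05 with limma (lowest 0.237).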

How the data were processed

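ING WAT RNA of 8 mice was sequenced in paired-end reads. Per the labels and the study's methods, the authors mapped reads to mm10 (GRCm38) with STAR 2.3.0 and quantified transcripts with Cufflinks 2.1.1 on a Gencode annotation, after CASAVA 1.8.2 and FastQC. The deposited table gives 1 FPKM value per transcript and mouse, beside an SD, an average and a score by the authors. Decimal marks were missing from values of 40426 of 91969 transcripts, and were put back with the help of the deposited SD, average and score, which rest on 10 values, 2 of them not listed. A single reading was found for 40368 transcripts, 57 with several readings were left out, and all 5001 that also stand intact in the authors' table of the comparison were equal in all 8 mice within rounding. That table's fold changes and p-values were not used. No transcript of the 10 genes was left out.

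Transcripts were assigned to genes by identifier with GENCODE vM21 (88737 transcripts) or by the single gene in the table (1928), and FPKM was summed. limma 3.58.1 in R 4.3.3 was fitted to log2(FPKM + 1), without covariates, for genes with a mean of at least 1 FPKM, and tested on simulated data with 200 changed genes. A change of 2 on the log2 scale was recovered in 75% and of 3 in 91% of cases in the gene-level comparison of 16091 genes. Transcripts were tested as the study did. Ratios used exact permutation tests. Alternatives were other pseudocounts, filters, scalings, weights, top transcripts and leaving out mice. Named genes were the 10 genes, listed pathway genes and regulators with an adjusted p under 0.05 or in a ratio, the 5 nearest patterns (1 of which is not reported here) and the transcripts with a mean above 2. Genes shown beside the brown adipocyte markers were chosen after their values were seen. The genes and lists were chosen with earlier results of these data known.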

Additional observations from a re-analysis of the deposited data

Results flagged for a closer look

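Groups of 4 mice were examined for a mouse far from the others in the 10 genes and 10 log2 ratios, 40 groups in all, and 1 was flagged, where chance flags about 1 in 20. The log2 ratio of *Pck1* to *Gpd1* was −3.03 in PN21 mouse m49, and its gap to the next mouse took up 0.898 of the range of the 4 mice. This mouse had the lowest *Pck1* (226 FPKM) and the highest *Gpd1* (1853 FPKM) of PN21. Without it, the difference between the ages in this log2 ratio was 2.14 in place of 2.69.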

How the results depend on the processing

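The log2 fold change of *Mogat1* passed the threshold under all 10 other settings with 8 mice (1.001 to 2.29) and in all 8 runs without 1 mouse. No alternative that gave a value turned *Pck1*, *Gpd1*, *Agpat2*, *Mogat2* or *Mogat1*. Below the filter, *Mogat2* had no value with the stricter filter, the highest transcript, protein-coding transcripts, scaling to the adipocyte markers or without m114, and *Lpin1* and *Lpin3* had none with the stricter filter. *Gpam* turned to 0.040 when scaled by median of ratios and to 0.071 when scaled to nuclear genes, and *Dgat2* to −0.14 with arrayWeights. Scaling to the adipocyte markers turned *Lpin1* (−0.62), *Dgat1* (−0.72), *Dgat2* (−1.05) and *Aqp7* (−0.36), called 4 of the 10 genes lower (*Gpd1*, *Gpam*, *Agpat2* and *Dgat2*) and 27 pathway and regulator genes, and gave 12626 genes, 101 higher and 12525 lower; its construction lowers most genes. In runs without 1 mouse, *Gpam* turned to 0.010 and 0.050 (range from −0.53), *Lpin1* to −0.24 (up to 0.50) and *Dgat2* reached −0.21, −0.20 and −0.04 (up to 0.29). The *Lpin1* to *Lpin2* log2 ratio turned to 0.13 with the highest transcript and, without 1 mouse, to 0.02, 0.04 and 0.11 (range from −0.65), and *Gk* to *Gpd1* to 0.06 and 0.26 (range from −0.21).

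Of the 10 genes, 2 were called higher with median of ratios scaling, 3 with arrayWeights, 3 with protein-coding transcripts and 1 to 3 without 1 mouse, 3 being without m35. The gene-level count of 838 was 535 (265 lower) with a mean FPKM of at least 5 and 4630 (1145 higher, 3485 lower) with arrayWeights. It had 756 higher with median of ratios scaling, 62.7% of its calls against 44.5% as deposited, and 256 lower with scaling to nuclear genes, where 67.8% were higher. Without 1 mouse it ranged from 190 without m106 to 3523 without m35, with 93 to 675 higher and 97 to 2848 lower. Without both m35 and m145, an alternative added later like that of protein-coding transcripts, it was 2499, with 2041 lower. Called pathway and regulator genes, 2 as reported, were 1 with the stricter filter, 1 with median of ratios scaling, 0 with scaling to nuclear genes, 0 with the highest transcript, 8 with arrayWeights, 4 without m35 and m145, 0 with protein-coding transcripts and 0 to 4 without 1 mouse. The transcript-level count of 301 was 536 with median of ratios scaling, 102 without the condition on the mean, and 46 to 1752 without 1 mouse. No ratio passed under any alternative. The cause of these changes was not tested. No paired analysis was possible because the labels give mouse numbers that the ages do not share. FPKM without counts leaves the depth unknown, so the precision of low genes such as *Mogat2* and *Lpin1* cannot be given.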
